A study of Mus musculus with 28 samples.

Results

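The genes described here are 34 genes that mark T cells or carry the signal of the T cell receptor. A gene was measured through the probe sets that the array annotation assigns to it alone, and where it had several, the one with the highest mean over the arrays was used. By this rule 32 of the 34 genes were measured, out of 18193 genes in all. Lck and Tcf7 were not analysed here. Of the 32 genes, 15 had more than 1 such probe set, and together they had 64.

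T cells recognise antigen through a receptor whose signal passes through the CD3 chains (Cd3d, Cd3e, Cd3g, Cd247). The coreceptors CD4 and CD8 bring a kinase to that complex, Zap70 is recruited to it, and the adaptors Lat and Lcp2 (SLP-76) join it to calcium, Ras and protein kinase C signalling. Cd28 and Icos strengthen the signal, Ctla4 restrains it, and Cd69 appears early on activated lymphocytes of several kinds. In the spleen, T cells lie around the arterioles of the white pulp, beside B cell follicles and a red pulp rich in red cells and macrophages.

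Spleen RNA was hybridised to 28 arrays in 12 groups from 2 experiments. All mice carried floxed Pparg alleles (PPAR g flfl). Wild-type mice lacked MMTV-Cre, and null mice carried MMTV-Cre, a recombinase driven by a mammary tumour virus promoter, to delete Pparg, the nuclear receptor PPAR gamma. Mice ate either control chow or chow supplemented with the plant hormone abscisic acid (ABA), and some received lipopolysaccharide (LPS), a bacterial cell wall component, while others did not. The experiment on wild-type mice alone, called the single-genotype experiment here, had 4 arrays on each of the 2 diets with LPS and 2 on each without. The experiment with both genotypes had 2 arrays in each of its 8 groups of genotype, diet and LPS. The labels give no LPS dose or time, age or sex, and speak of spleen as the source and of splenocytes in the protocol. Whether replicate arrays stand for separate mice is not stated, so p-values reflect the spread among arrays, which may be technical.

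Values are the authors' log2 values. A level is compared only within an experiment because the experiments look separately normalised, which was inferred from the values. The lowest value of an array, where a gene cannot be told from background, was 2.29 in the single-genotype experiment and 2.24 in the other. Pparg itself lay between 2.31 and 3.56 on the 8 wild-type arrays and between 2.45 and 3.31 on the 8 null arrays of the same experiment, too near the lowest value to check the genotype labels. A female transcript, Xist, was high on 12 of 12 arrays of the single-genotype experiment and on 6 of 16 of the other. These 6 were spread unevenly over its groups, with both wild-type control-diet LPS arrays high and neither of those without LPS. The pancreas transcript Cpa1 exceeded the array minimum by more than 2 log2 units on 2 arrays of each experiment. In the single-genotype experiment these were control-diet replicate 1 without LPS and control-diet LPS replicate 2. In the other they were null ABA-diet replicate 2 and null control-diet replicate 2, both without LPS.

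Members differed in how well they were measured. The T cell label held at the CD3 chains: Cd3d, Cd3e and Cd3g lay above 7 on every array of both experiments. Gata3 and Ubash3a, a transcription factor and a phosphatase-like regulator of the receptor, lay within 0.5 log2 units of the lowest value on all 12 arrays of the single-genotype experiment, as did the surface receptor Cd6, the adaptor Trat1 and the kinase Txk. Foxp3, the factor that defines regulatory T cells, lay between 3.44 and 5.18 in the single-genotype experiment and did not exceed 2.28 on the 16 arrays of the other. After a filter on low values, 31 of the 32 members were tested over the 20 wild-type arrays (all but Gata3) and 30 in the experiment with both genotypes (all but Gata3 and Foxp3). Some probe sets repeated 1 value on many arrays, equal within 1e-06: Cd3e stood at 8.03 on 6 of 16 arrays where both genotypes were studied, Themis at 3.73 on 6 of 16, and Cd6 at 4.48 on 11 of 16.

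Promoters are shown for members called and not called with LPS, for reading beside the values below. Whether the members' responses differ from each other was not tested. Cd3g, which fell with LPS in the pooled wild-type comparison, and Cd3d, which was not called, start 1355 bases apart on opposite strands. Lcp2 and Ctla4 rose. The 250 bases before each RefSeq start (GRCm38.p6) are given 5′ to 3′ on the gene's strand, with capitals for matches to the letters AGATAA (the GATA motif) or CTTTGA (the TCF/LEF motif) on either strand.
Cd3g, chr9:44980432-44980681, minus strand: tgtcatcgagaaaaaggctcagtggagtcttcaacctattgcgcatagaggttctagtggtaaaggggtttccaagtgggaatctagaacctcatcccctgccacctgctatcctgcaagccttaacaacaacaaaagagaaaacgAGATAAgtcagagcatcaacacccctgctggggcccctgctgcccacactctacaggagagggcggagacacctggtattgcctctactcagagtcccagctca
Cd3d, chr9:44981536-44981785, plus strand: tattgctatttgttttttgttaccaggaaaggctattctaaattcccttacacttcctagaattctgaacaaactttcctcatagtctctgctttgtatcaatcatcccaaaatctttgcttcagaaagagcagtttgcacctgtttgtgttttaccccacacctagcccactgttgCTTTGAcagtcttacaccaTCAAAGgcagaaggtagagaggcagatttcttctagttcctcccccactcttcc
Lcp2, chr11:34046678-34046927, plus strand: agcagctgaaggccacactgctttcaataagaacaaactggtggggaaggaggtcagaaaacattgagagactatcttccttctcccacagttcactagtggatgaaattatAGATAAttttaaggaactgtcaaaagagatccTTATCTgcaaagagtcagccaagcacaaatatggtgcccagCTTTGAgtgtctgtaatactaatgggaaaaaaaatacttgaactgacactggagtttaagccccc
Ctla4, chr1:60908775-60909024, plus strand: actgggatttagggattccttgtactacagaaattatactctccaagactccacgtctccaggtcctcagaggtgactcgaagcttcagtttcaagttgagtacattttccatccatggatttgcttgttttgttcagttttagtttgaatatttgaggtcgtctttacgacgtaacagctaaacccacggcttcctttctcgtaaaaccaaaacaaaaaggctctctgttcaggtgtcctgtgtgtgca

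The capitals in the Cd3g window begin 104 bases before its start and match the GATA letters, and those in the Cd3d window begin 73 and 54 bases before it and match the TCF/LEF letters. In the Lcp2 window the GATA letters begin 138 and 106 bases and the TCF/LEF letters 65 bases before the start. The Ctla4 window holds neither. Of the 23 members with a promoter entry, 6 (26.1%) held the TCF/LEF letters, against 14.0% of 27025 promoters, and 2 (8.7%) held the GATA letters, against 10.3%. The RUNX letters TGTGGT were found in 1 member (14.2% of all promoters) and the ETS letters CCGGAA in 2 (12.2%). The letters of AP-1 (TGANTCA, 6.87% of all promoters), NF-kB (GGGA, any base, TTTCC, 0.337%) and the STAT site GAS (TTCCNGGAA, 0.914%) were found in 0 of the 23. These are matches of letters in a short window, and none was tested as a binding site.

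The first comparison asked what LPS did in the spleen of wild-type mice, over both diets and with the experiment as a term in the model. Of 31 members tested, 5 rose and 6 fell (limma, adjusted p under 0.05 over all genes). LPS moved much of the array: 30.9% of 13458 genes were called, 16.7% rising and 14.1% falling, so the members' count is near the background. At an unadjusted p under 0.05 there were 14 members, against 40.9% of all genes. Their median change was -0.01 on the log2 scale, against -0.00 over all genes tested, and ran from -0.16 (without ABA-diet replicate 1 without LPS of the single-genotype experiment) to 0.023 (without replicate 2 of that group) as single arrays were left out. The activation marker Cd69, the checkpoint receptor Ctla4, the transcription factor Tbx21 (T-bet), the adaptor Lcp2 and the kinase Prkcq rose. The surface glycoproteins Thy1, Cd5 and Cd2, the CD3 chain Cd3g and the adaptors Themis and Skap1 fell. In bulk spleen RNA, fewer T cells and less of a transcript per T cell cannot be told apart.

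Thy1, the surface glycoprotein used as a pan-T marker in mice, fell most. In the single-genotype experiment it measured 9.83 and 8.74 on the control-diet arrays without LPS and 7.75 and 9.08 on the ABA-diet arrays, and with LPS its 8 values ran from 5.91 through a median of 6.59 to 7.01. No LPS array reached any array without LPS there. The wild-type mice of the experiment with both genotypes had 8.91 and 8.78 (control diet) and 6.32 and 8.22 (ABA diet) without LPS, and 7.08, 6.52, 6.32 and 7.20 with it, so the arrays overlapped through 1 ABA-diet array without LPS. Over the 20 arrays Thy1 fell by 1.86 ± 0.29 (SE), a 3.64-fold decrease with adjusted p = 0.000158. The call held with each of the 20 arrays left out in turn.

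Of the CD3 chains, Cd3g passed the threshold over both experiments and Cd3e lay just beyond it. Without LPS the values of Cd3g in the single-genotype experiment were 9.62, 9.41, 8.11 and 9.66, and with LPS they ran from 7.12 through a median of 7.94 to 8.75. The array at 8.11, from an ABA-fed mouse, lay inside the LPS range and the other 3 lay above it. In the other experiment wild-type values were 8.19, 8.32, 7.70 and 9.22 without LPS and 8.21, 7.99, 8.04 and 8.26 with it, and these overlapped. Cd3g fell by 0.86 ± 0.28 over both experiments (1.82-fold, adjusted p = 0.0293). The call was lost when either control-diet array without LPS or ABA-diet replicate 2 without LPS of the single-genotype experiment was left out (adjusted p of 0.0763, 0.0694 and 0.0802), or ABA-diet replicate 2 without LPS of the other (0.0559), and without the 2 wild-type arrays high in Cpa1 (0.0926).

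Cd3e, the chain that antibodies to CD3 usually bind, was not called over both experiments, at -0.60 ± 0.22 with adjusted p = 0.0514. It was called under quantile normalisation (-0.74, adjusted p = 0.0248), a trended variance (0.0495), the 60th percentile filter (0.0359) and averaging of probe sets (0.0494). It was also called without ABA-diet LPS replicate 1 of the single-genotype experiment (0.0403) and, among wild-type arrays of the other, without ABA-diet replicate 1 without LPS (0.034), control-diet replicate 2 without LPS (0.0357) or control-diet LPS replicate 2 (0.0195). It measured 9.88, 9.61, 9.0 and 10.20 without LPS and 8.15 to 9.38 (median 8.79) with LPS in the single-genotype experiment, where it fell by 0.90 ± 0.27 (adjusted p = 0.0345 within that experiment). In the other it measured 9.13, 8.18, 7.73 and 8.03 without LPS in wild-type mice and 8.03, 8.67, 7.57 and 8.03 with it, and the groups overlapped. Cd3d, at -0.27 ± 0.21, and Cd247, the zeta chain, at 0.41 ± 0.27, did not pass the test. Other probe sets of Cd247 gave -0.07, -0.03 and -0.01, none called.

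None of the coreceptors was called over both experiments. Cd4 measured 8.52, 8.47, 7.86 and 8.83 without LPS in the single-genotype experiment and 6.92 to 7.89 (median 7.33) with LPS, where ABA-diet replicate 1 without LPS, at 7.86, fell just under the highest LPS array. Within that experiment Cd4 fell by 1.05 ± 0.18 (adjusted p = 0.00296). Wild-type values in the other experiment were scattered, at 7.84, 2.40, 4.10 and 5.16 without LPS and 4.90, 4.61, 3.46 and 2.28 with it, and over both the change was -1.05 ± 0.52 (adjusted p = 0.143). Leaving out the array at 2.40 gave -1.46 with adjusted p = 0.0134, and leaving out its partner at 7.84 gave -0.62 with adjusted p = 0.236, so the size and the call rest on these 2 control-diet arrays. The other probe set of Cd4 gave -0.33 over both experiments and was not called.

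On the probe sets used, the CD8 chains moved little. Cd8a measured 9.46, 9.03, 8.31 and 9.46 without LPS and 7.91 to 9.30 (median 8.89) with LPS in the single-genotype experiment. Wild-type mice of the other had 8.02, 7.24, 7.31 and 7.55 without LPS and 7.68, 7.64, 7.32 and 7.76 with it. The arrays overlapped in both, and the change was -0.11 with a 95% interval from -0.49 to 0.28. Its sign turned when ABA-diet replicate 2 without LPS of the single-genotype experiment was left out (0.02). Other probe sets of Cd8a gave -0.32, -0.02, 0.16 and 0.44, none called. Cd8b1, the beta chain, was at -0.33 ± 0.18.

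Among the other surface receptors, Cd5, a scavenger-type receptor that dampens receptor signalling, measured 5.89, 6.35, 5.73 and 5.99 without LPS in the single-genotype experiment and 4.13 to 5.37 with it. Those groups did not overlap. Among wild-type arrays of the other experiment, 7.84, 7.02, 5.05 and 6.98 without LPS overlapped 6.15, 6.76, 5.97 and 6.30 with it. Cd5 fell by 0.74 ± 0.26 (adjusted p = 0.0385), a call lost with 11 of the 20 arrays left out singly.

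Cd2, an adhesion receptor shared by T and NK cells, measured 10.07, 9.5, 8.75 and 10.14 without LPS and 8.05 to 9.28 with it in the single-genotype experiment. In the other it measured 8.24, 8.80, 8.24 and 8.93 without LPS and 8.39, 8.40, 8.17 and 8.28 with it in wild-type mice. The groups overlapped in both. It fell by 0.57 ± 0.21 (adjusted p = 0.0487), and 14 of the 20 single omissions ended the call.

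Themis, an adaptor best known from T cell selection in the thymus, was measured low. It stood at 4.62, 4.81, 3.42 and 4.97 without LPS and 2.87 to 4.27 with LPS in the single-genotype experiment. Wild-type arrays of the other stood at 3.73, 3.73, 4.06 and 5.07 without LPS and 3.73, 3.07, 2.91 and 3.40 with it. The groups met or overlapped in both experiments, and the gene fell by 1.03 ± 0.24 (adjusted p = 0.00435). Further probe sets of Themis gave -0.75, -0.09 and -0.004, none called.

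Skap1, an adaptor that couples the receptor to integrins, stood at 4.62, 4.35, 3.68 and 4.59 without LPS and 3.28 to 4.14 with it in the single-genotype experiment. In the other, wild-type mice had 6.26, 6.44, 5.62 and 6.27 without LPS and 5.96, 5.82, 5.30 and 6.06 with it. The LPS arrays were the lower on the whole but overlapped the rest in each experiment. Skap1 fell by 0.53 ± 0.14 (adjusted p = 0.0101), and 2 further probe sets of the gene gave -0.41 and -0.17, neither called.

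**Figure D1:**
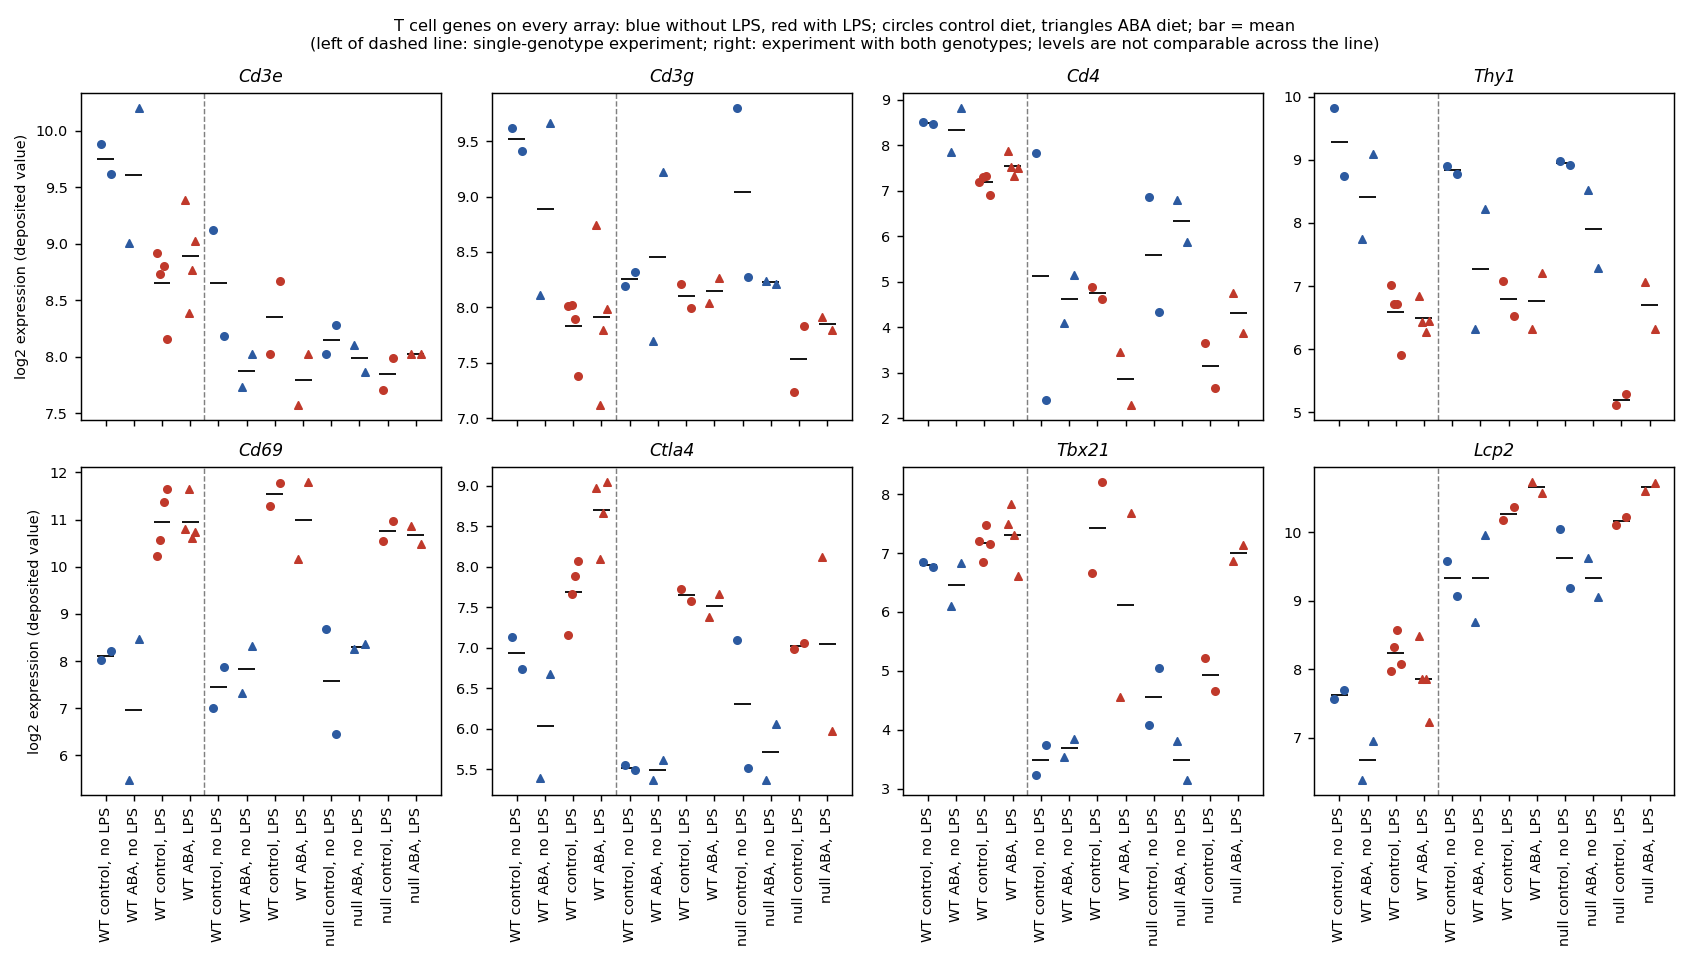
Deposited log2 values (vertical axis) of 8 T cell genes on every array, by group; blue marks arrays without LPS and red with LPS, circles the control diet and triangles the ABA diet, bars the group means, and the dashed line parts the 2 experiments, across which levels cannot be compared. Thy1 lies lower and Cd69 higher on all 8 LPS arrays of the single-genotype experiment than on its 4 arrays without LPS, and Cd4 spans 2.28 to 7.84 in the experiment with both genotypes.

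Cd69, a lectin-type receptor that holds lymphocytes in tissue, rose most. Its values without LPS were 8.02, 8.22, 5.48 and 8.46 in the single-genotype experiment and 7.0, 7.88, 7.32 and 8.33 in wild-type mice of the other. With LPS they ran from 10.22 through a median of 10.77 to 11.65 in the former and were 11.29, 11.77, 10.17 and 11.79 in the latter. Every LPS array lay above every array without LPS in each experiment. Cd69 rose by 3.5 ± 0.37, or 11.3-fold (adjusted p = 3.6e-06). Cd69 is not confined to T cells, and which cells carried it was not tested.

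Ctla4, the inhibitory receptor that competes with Cd28, followed. In the single-genotype experiment it measured 7.13, 6.74, 5.39 and 6.67 without LPS. With LPS it measured 7.16, 7.66, 7.88 and 8.07 on the control diet and 8.97, 8.10, 8.67 and 9.04 on the ABA diet. Wild-type arrays of the other experiment measured 5.55, 5.49, 5.37 and 5.61 without LPS and 7.72, 7.58, 7.37 and 7.66 with it. No array overlapped between the conditions in either experiment, and the rise was 1.87 ± 0.22 (3.65-fold, adjusted p = 8.1e-06). Cd28 and Icos, the activating receptors of the same family, were at -0.46 ± 0.23 and -0.19 ± 0.25 and did not pass. Other probe sets gave -0.76 for Cd28 and 0.35 and -0.01 for Icos, none called. Cd27, a costimulatory receptor of the TNF receptor family, was at 0.04 ± 0.34.

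Tbx21, the factor that directs T helper 1 cells and is also made by NK cells, rose by 1.72 ± 0.48 (3.28-fold, adjusted p = 0.0122), mostly in 1 experiment. There, wild-type mice had 3.22, 3.75, 3.54 and 3.84 without LPS and 6.66, 8.21, 4.55 and 7.69 with it. In the single-genotype experiment the values were 6.84, 6.76, 6.10 and 6.82 without LPS and 6.62 to 7.84 (median 7.26) with it. The groups were apart in the former and overlapped in the latter, where the change was 0.61 ± 0.23 (adjusted p = 0.0863). The difference between the experiments was 2.58 ± 0.72 and did not pass (adjusted p = 0.0635).

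Lcp2, the scaffold also named SLP-76 and shared with myeloid cells and platelets, measured 7.56, 7.70, 6.38 and 6.96 without LPS and 7.23 to 8.58 with it in the single-genotype experiment. Wild-type mice of the other had 9.58, 9.08, 8.70 and 9.97 without LPS and 10.18, 10.36, 10.73 and 10.58 with it. The conditions overlapped in the former and did not in the latter. Lcp2 rose by 1.00 ± 0.20 (2-fold, adjusted p = 0.00157), while the gene's other probe set was at 0.28 and was not called.

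Prkcq, the protein kinase C of the T cell synapse, measured 6.98, 6.69, 6.14 and 6.97 without LPS and 6.46 to 7.49 with it in the single-genotype experiment. In the other it measured 8.53, 8.37, 8.50 and 8.98 without LPS and 9.19, 9.32, 8.67 and 9.02 with it in wild-type mice. The groups overlapped in each experiment. The rise was 0.41 ± 0.15 (adjusted p = 0.0437), lost with 14 of the 20 arrays left out singly and under quantile normalisation (0.30, adjusted p = 0.142).

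The remaining members did not pass. Zap70, the kinase that docks on the CD3 chains, was at 0.39 ± 0.24, from a probe set whose name marks possible cross-hybridisation. Lat, the adaptor that Zap70 phosphorylates, was at 0.02 ± 0.20 and Rasgrp1, which activates Ras, at 0.32 ± 0.21. Other probe sets of Rasgrp1 ran from -0.49 to 0.09, none called. Of the transcription factors of T cell identity, Lef1 was at -0.40 ± 0.20, Bcl11b at 0.12 ± 0.28 and Satb1, a chromatin organiser, at 0.56 ± 0.24 (adjusted p = 0.086). The other probe set of Lef1 gave 0.05 and those of Bcl11b ran from -0.04 to 0.53, none called. Another probe set of Satb1 gave 0.93 and passed (adjusted p = 0.0394) in the separate fit of all single-gene probe sets, where the one used had 0.097. Foxp3, at 3.67, 3.44, 3.67 and 3.63 without LPS and 3.44 to 5.18 with it in the single-genotype experiment, was at 0.18 ± 0.17 over both experiments, on groups that overlapped. Trat1 was at -0.34 ± 0.16, and Cd6, Txk and Ubash3a, all near the lowest value in at least 1 experiment, lay between -0.01 and 0.09.

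Taken within each experiment, the single-genotype arrays alone called 3 rising members (Cd69, Ctla4, Lcp2) and 7 falling ones (Thy1, Cd4, Cd5, Cd3g, Themis, Skap1, Cd3e), where 27.1% of all genes were called, 15.1% rising and 12% falling. The 8 wild-type arrays of the other experiment alone called 2 rising (Ctla4, Cd69) and 0 falling, where 7.28% of all genes were called, 4.77% rising and 2.51% falling. Of 28 members tested within both, 12 were lower with LPS in both, 9 were higher in both and 7 had opposite signs. The test of the difference itself called 0 of 31 members (limma), where it called 4.8% of all genes (2.78% higher and 2.02% lower), and 4 members had an unadjusted p under 0.05, against 17.3% of all genes. The members' median difference, single-genotype experiment subtracted, was 0.43, with 25 of 31 above 0, against 0.00 over all genes. Single omissions moved that median from 0.10 to 0.74. Counting members whose arrays did not overlap, Ctla4 and Cd69 were higher and Cd5 and Thy1 lower with LPS in the single-genotype experiment, where 9.56% and 6.07% of all genes were. Among wild-type arrays of the other, Lcp2, Ctla4, Tbx21 and Cd69 were higher and Trat1 lower, where 9.47% and 7.96% of all genes were.

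**Figure D2:**
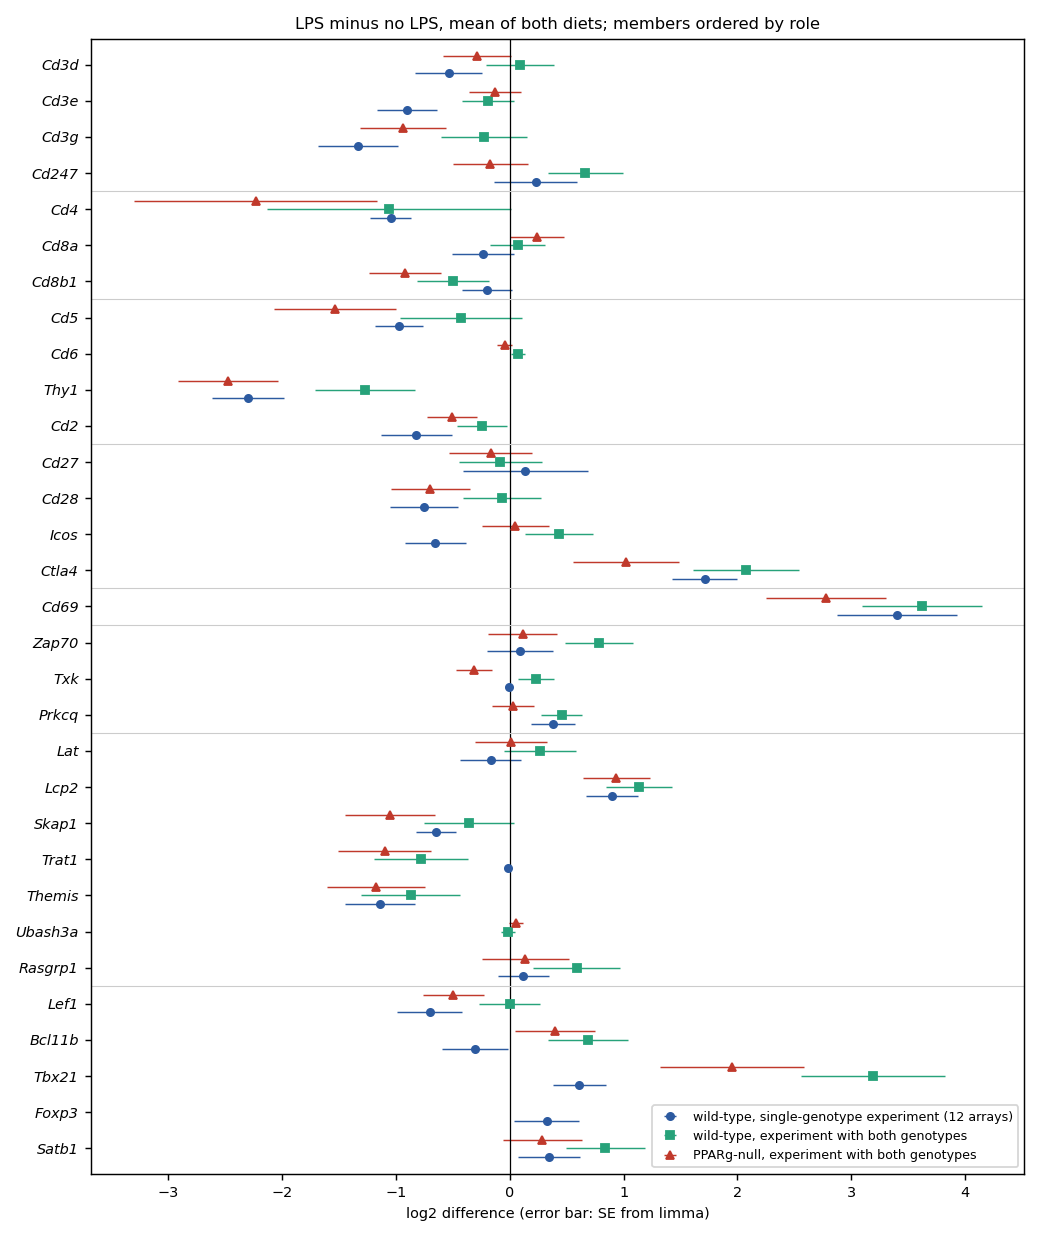
LPS minus no LPS on the log2 scale (horizontal axis) for each member, ordered by role; points are limma estimates over both diets and bars their standard errors, in wild-type mice of the single-genotype experiment (blue circles), wild-type mice of the experiment with both genotypes (green squares) and null mice (red triangles). Cd69 lies to the right at 3.40, 3.62 and 2.78 and Thy1 to the left at -2.30, -1.27 and -2.48, and Ctla4, Tbx21 and Lcp2 lie right of 0 in all 3 sets.

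The lists kept beside the members moved as follows with LPS in wild-type mice, against the same 16.7% rising and 14.1% falling. Of 21 partners and regulators of receptor signalling, 4 rose and 1 fell: Vav1, a guanine nucleotide exchange factor, rose by 0.83 ± 0.14 and Ptpn22, a phosphatase that restrains the receptor, by 1.39 ± 0.26, while Dgka, a diacylglycerol kinase, fell by 1.11 ± 0.28. Of 12 genes of naive T cell homing and survival, 2 rose and 3 fell, with Ccr7, the lymph node homing receptor, up by 2.48 ± 0.26, the IL-7 receptor Il7r up by 0.74 ± 0.20, and Ccr9 and Igfbp4 down, at -0.56 ± 0.14 and -0.83 ± 0.27. Of 19 activation genes, 11 rose and 1 fell. Tnfrsf9 (4-1BB) rose by 3.58 ± 0.22 and Nfil3, a transcription factor, by 2.74 ± 0.27, and Havcr2 (TIM-3) fell by 1.74 ± 0.22. Havcr2 and Ccr9 lay near the lowest value on all 8 LPS arrays of the single-genotype experiment, which limits the size of their falls. The median change was 0.01 for the signalling partners, -0.28 for the homing genes and 0.69 for the activation genes. Many activation genes are also made by B and myeloid cells.

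Markers of other cells moved in the same comparison. All 7 erythroid genes tested fell, their summed level running from 11.40 to 15.57 without LPS and from 8.68 to 12.56 with it in the single-genotype experiment (log2 of summed linear values). Of 11 B cell genes 4 fell and 0 rose, with sums of 13.13 to 14.14 without LPS and 12.98 to 13.78 with it. Of 7 NK genes 3 rose and 1 fell, with sums of 10.23 to 10.66 and 11.41 to 12.73, and in that experiment the defining markers Ncr1 and Prf1 stayed near the lowest value. On wild-type arrays of the other experiment the NK sums were 8.76 to 9.91 without LPS and 9.71 to 10.72 with it, and Klre1 was the NK gene near the lowest value on all of them. Of 9 macrophage genes 1 rose and 4 fell, and of 7 neutrophil genes 2 rose and 0 fell. The sum over the members themselves ran from 12.42 to 13.68 without LPS and from 12.93 to 13.54 with it. In wild-type mice of the other experiment the members' sum was 12.17 to 13.19 without LPS and 13.09 to 13.73 with it. High members such as Cd69 weigh most in this sum, which is no measure of T cell number. The mean of the members' log2 values was 6.04 to 6.79 without LPS and 6.44 to 6.95 with it. There the erythroid sum went from 14.20 to 16.53 without to 10.62 to 12.44 with LPS. The neutrophil sum went from 12.47 to 14.62 without to 15.20 to 16.17 with it. In the single-genotype experiment the neutrophil sums overlapped, at 13.67 to 15.04 without LPS and 13.31 to 14.74 with it. The LPS change of 6 of 7 neutrophil genes was called higher in the experiment with both genotypes than in the single-genotype one (limma), where 2.78% of all genes were. The part of these lists in the members' changes was not tested.

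**Figure D3:**
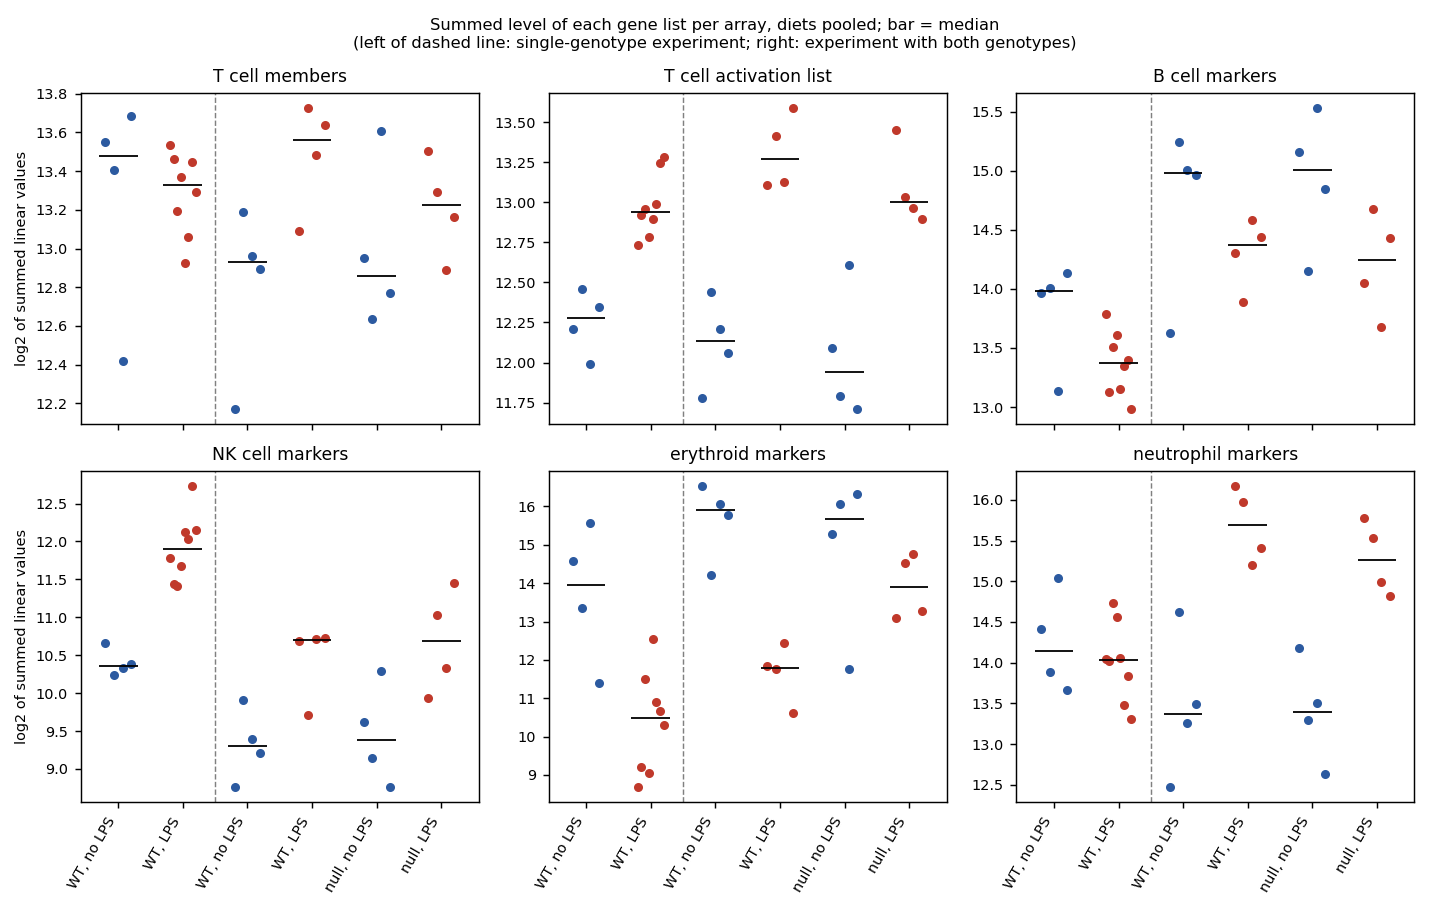
Log2 of the summed linear values of each gene list (vertical axis) on every array, both diets together, by experiment, genotype and LPS; points are arrays, bars medians. Erythroid sums lie lower with LPS in wild-type mice of both experiments, without overlap in the experiment with both genotypes. The T cell members' sums overlap in every pair. Their medians without and with LPS were 13.48 and 13.33 in the single-genotype experiment. In the other they were 12.93 and 13.56 in wild-type mice and 12.86 and 13.23 in null mice. High members such as Cd69 weigh most in the T cell sums.

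The ABA diet was compared with the control diet in wild-type mice, with and without LPS. With LPS, 0 of 31 members were called (limma), where 0.0149% of all genes were, and 1 member had an unadjusted p under 0.05, against 5.08% of all genes. That member was Ctla4, at 0.63 ± 0.27 (adjusted p = 0.944). Its 4 ABA arrays with LPS in the single-genotype experiment, given above, all lay above the 4 control arrays, the closest pair being 8.10 and 8.07. In the other experiment the ABA arrays at 7.37 and 7.66 and the control arrays at 7.72 and 7.58 overlapped. Within the experiments the difference was 1.01 ± 0.33 (adjusted p = 0.384) and -0.13 ± 0.14 (adjusted p = 0.983), so it held no common sign. In the latter experiment Xist measured 12.46 and 12.17 on the control-diet wild-type arrays with LPS and 2.25 on both ABA-diet ones. Diet and sex cannot be told apart in that part of the comparison, for any member.

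Without LPS, 0 of 31 members were called (limma), where 0.00743% of all genes were, and 3 members had an unadjusted p under 0.05, against 5.86% of all genes. These were Thy1 at -1.22 ± 0.44 (adjusted p = 0.811), Lat at -0.77 ± 0.31 (0.836) and Cd5 at -0.84 ± 0.39 (0.843). The members' median was -0.23, with 27 of 31 below 0, against -0.00 over all genes. Beside them, 11 of 12 homing genes (median -0.32) and 11 of 11 B cell genes (median -0.42) lay below 0. The ABA arrays without LPS were uneven. On replicate 1 of the single-genotype experiment the members' sum was 12.42, against 13.68 on the other ABA array, and the erythroid sum was 15.57 against 11.40. On replicate 1 of the other experiment's wild-type mice the members' sum was 12.17 against 13.19, and the erythroid sum 16.53 against 14.20. In the single-genotype experiment Cd247 measured 4.65 on replicate 1 and 6.93 on replicate 2, and Cd69 5.48 and 8.46. Without that replicate 1 the differences were -1.15 for Thy1, -0.61 for Lat and -0.95 for Cd5, that of Cd247 went from -0.84 to -0.48, and that of Cd69 turned from -0.38 to 0.27. The members' median was then -0.13, with 21 of 31 below 0. It was -0.10, with 18 of 31 below 0, without replicate 1 of the other experiment's ABA-fed wild-type mice, and -0.50 and -0.38 without the replicate 2 array of either ABA group. Without control-diet replicate 2 of the experiment with both genotypes it was -0.37. The part of the erythroid and B cell levels in these values was not tested. Of the signalling partner, homing and activation lists, 0 genes were called between diets in wild-type mice, with or without LPS.

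Whether the diet altered the LPS response was tested as an interaction, which called 0 of 31 members (limma) and 0% of all genes. An unadjusted p under 0.05 was found for 2 members, against 4.17% of all genes: Lat at 1.04 ± 0.40 and Ctla4 at 1.09 ± 0.42 (adjusted p = 0.956 for both). Lat measured 9.23 and 9.21 on control arrays without LPS, 7.97 and 9.29 on ABA arrays without LPS, 8.26 to 8.85 on control arrays with LPS and 8.34 to 9.36 on ABA arrays with LPS in the single-genotype experiment. Without the low ABA-diet array both values shrank, to 0.88 and 0.82. The members' median was 0.29, with 27 of 31 above 0, against 0.00 over all genes. It was 0.11, with 22 of 31 above 0, without that low array, and 0.62 without replicate 2 of its group. Beside the members, 11 of 12 homing genes and 11 of 11 B cell genes lay above 0, and their part was not tested.

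In null mice the ABA and control diets were compared over both LPS states of the experiment with both genotypes, and 0 of 30 members were called (limma), as were 0% of all genes. With an unadjusted p under 0.05 (3.13% of all genes) there was 1 member, Cd8b1, at -0.89 ± 0.32. It measured 6.87 and 7.04 without LPS and 6.36 and 5.90 with LPS on the ABA diet, and 8.68 and 7.20 without and 6.79 and 7.06 with LPS on the control diet. The ABA arrays lay below their control partners within each LPS state. With null control-diet LPS replicate 1 left out, 1 member was called as lower.

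The LPS response was then examined in the experiment with both genotypes alone. In wild-type mice 4 of 30 members rose (Cd69 by 3.62 ± 0.53, Tbx21 by 3.19 ± 0.63, Ctla4 by 2.08 ± 0.47 and Lcp2 by 1.14 ± 0.29) and 0 fell, where 14% of all genes were called, 8.55% rising and 5.49% falling. At an unadjusted p under 0.05 there were 8 members, against 27.4% of all genes. Their adjusted p-values were 0.00301, 0.0126, 0.0205 and 0.033. Lcp2 lost its call when any array but ABA-diet replicate 2 without LPS was left out, Ctla4 with 6 of 8 left out, and Tbx21 without control-diet LPS replicate 2 (adjusted p = 0.0629). Cd69 kept its call with each of the 8 arrays left out.

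In null mice Cd69 rose and Thy1 fell, 1 member each way of 30, where 7.4% of all genes were called, 3.95% rising and 3.45% falling. Cd69 measured 8.68, 6.46, 8.26 and 8.35 without LPS and 10.53, 10.98, 10.86 and 10.48 with it, without overlap. Its rise was 2.78 ± 0.53 (6.85-fold, adjusted p = 0.0151). Thy1 measured 8.98 and 8.92 on the control diet and 8.52 and 7.29 on the ABA diet without LPS. With LPS it measured 5.11 and 5.29 on the control diet and 7.07 and 6.32 on the ABA diet, again without overlap. It fell by 2.48 ± 0.44 (5.58-fold, adjusted p = 0.0111), and that call held with each array left out.

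The Cd69 call in null mice was lost without ABA-diet replicate 1 without LPS, ABA-diet LPS replicate 1 or control-diet LPS replicate 2, at adjusted p of 0.0526, 0.0638 and 0.0522. Of 30 members, 11 had an unadjusted p under 0.05, against 22.2% of all genes. Besides the called pair, Lcp2 at 0.94 and Tbx21 at 1.95 were higher, and Cd8b1 at -0.92, Cd5 at -1.54, Themis at -1.18, Trat1 at -1.10, Skap1 at -1.05, Cd3g at -0.94 and Cd2 at -0.51 lower. Cd3g measured 9.80, 8.27, 8.24 and 8.21 without LPS and 7.24, 7.83, 7.91 and 7.80 with it, and these did not overlap. Cd3g and Thy1 were the members lower with LPS without overlap in null mice, and Lcp2 and Cd69 the higher ones, where 6.97% and 6.5% of all genes were. Leaving out null control-diet replicate 2 without LPS, an array with a high Cpa1 level, raised the falling count from 1 to 6.

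Cd4 in null mice measured 6.86 and 4.33 (control diet) and 6.81 and 5.88 (ABA diet) without LPS, and 3.64 and 2.67 and then 4.76 and 3.87 with it. It overlapped between the conditions by 1 array and was at -2.23 ± 1.07 (adjusted p = 0.265). Cd3e, at 8.03, 8.28, 8.11 and 7.86 without LPS and 7.71, 7.99, 8.03 and 8.03 with it, was at -0.13 ± 0.23. Cd8a, at 7.85, 7.04, 7.56 and 7.01 without LPS and 7.63, 7.44, 7.86 and 7.48 with it, was at 0.24 ± 0.24. Both sets of arrays overlapped, and Foxp3 was not measured above background. Other probe sets of Cd8a ran from -0.59 to 0.14 in null mice, and the other of Cd4 gave -0.37, none called.

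Of the lists in null mice, 0 of 21 signalling partners were called in either direction, with 4 at an unadjusted p under 0.05. Among the homing genes Ccr7 rose by 2.26 ± 0.35, the 1 call of 12. Of 20 activation genes 4 rose and 0 fell, Tnfrsf9 by 3.45 ± 0.21 and Nfil3 by 2.42 ± 0.28 among them. Of the other cells' markers, 0 of 11 B cell genes were called (2 at an unadjusted p under 0.05) and 0 of 7 erythroid genes were, with erythroid sums of 11.77 to 16.31 without LPS and 13.08 to 14.75 with it. Of 9 macrophage genes 1 rose and 3 fell: the scavenger receptor Marco rose by 2.07 ± 0.39, while Cd163, the haemoglobin scavenger receptor, fell by 7.13 ± 0.72 and Slc40a1, the iron exporter ferroportin, by 4.92 ± 0.52. Of 7 neutrophil genes 3 rose, S100a8 by 1.88 ± 0.43 and Ngp by 2.23 ± 0.53 among them. Of 7 NK genes the granzyme Gzma rose by 2.82 ± 0.46 and the receptor chain Klrd1 fell by 1.81 ± 0.45, and of 7 pancreas genes Cela1, an elastase, fell by 5.10 ± 1.25. The null arrays without LPS included both arrays of that experiment high in Cpa1. Over the 20 wild-type arrays LPS calls went the same way for Marco (1.57), Cd163 (-6.08), Slc40a1 (-5.46), Gzma (2.07), Klrd1 (-1.09) and Cela1 (-2.97). In wild-type mice of the same experiment 5 of 7 neutrophil genes rose. The part of these lists in the members' values was not tested.

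Whether the genotype changed the LPS response was tested as an interaction, and 0 of 30 members were called (limma), where 0.0299% of all genes were (0.0224% higher and 0.00748% lower). With an unadjusted p under 0.05 (4.46% of all genes) there was 1 member, Txk, at -0.54 ± 0.22 (adjusted p = 0.943), whose values lay between 2.24 and 3.31. For Cd69 the null minus wild-type difference in response was -0.84 with a 95% interval from -2.53 to 0.84. For Thy1 it was -1.20, from -2.61 to 0.20, and for Ctla4 -1.06, from -2.55 to 0.43. These intervals include 0 as well as differences of over 2 log2 units. The members' median was -0.44, with 27 of 30 below 0, against -0.07 over all genes. It was -0.24 without null control-diet replicate 1 without LPS, -0.71 without replicate 2 of that group, and -0.26 without wild-type ABA-diet replicate 1 without LPS. In the same test 7 of 7 erythroid genes lay above 0 (median 3.96, 4 at an unadjusted p under 0.05), 10 of 11 B cell genes below 0 (median -0.28) and 7 of 7 pancreas genes below 0 (median -3.81). Their part in the members' values was not tested. Among null arrays without LPS, the pancreas sum was 16.23 and 12.90 on the 2 arrays high in Cpa1, and 9.19 and 8.57 on the others.

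Null and wild-type mice were also compared directly. Without LPS 0 of 30 members were called, where 0.00748% of all genes were, and with LPS 0 of 30, where 0.0299% were (limma; 0.0224% higher). In both, 0 members had an unadjusted p under 0.05, against 2.12% and 4.52% of all genes. The smallest p was that of Prkcq without LPS, at 0.28 ± 0.18, and that of Cd6 with LPS, at -0.13 ± 0.06. The median over the members was 0.25 without LPS, with 25 of 30 above 0, and -0.20 with LPS, with 25 of 30 below 0, against 0.02 and -0.02 over all genes. Single arrays moved these medians. Without LPS, 15 of 31 members lay above 0 without wild-type ABA-diet replicate 1 (median 0), 16 of 31 without null control-diet replicate 1 (0.0022), and the median was 0.42 without null control-diet replicate 2 and 0.49 without wild-type ABA-diet replicate 2. With LPS it was -0.32 without null ABA-diet replicate 1, -0.30 without wild-type ABA-diet replicate 1 and -0.09 without its replicate 2. Beside the members, 7 of 7 erythroid genes were lower in null mice without LPS (median -0.78) and 7 of 7 higher with it (median 2.96, 4 at an unadjusted p under 0.05), and 7 of 7 pancreas genes were higher in null mice without LPS (median 3.82). None of these was called, and their part in the members' medians was not tested. The pancreas sum without LPS was 16.23 on null ABA-diet replicate 2 and 12.90 on null control-diet replicate 2, both high in Cpa1. It was 9.19 and 8.57 on the replicate 1 arrays of these groups and 9.12 to 9.69 on wild-type arrays. The comparisons share arrays: the wild-type and null values behind them are those of the LPS comparisons above.

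**Figure D4:**
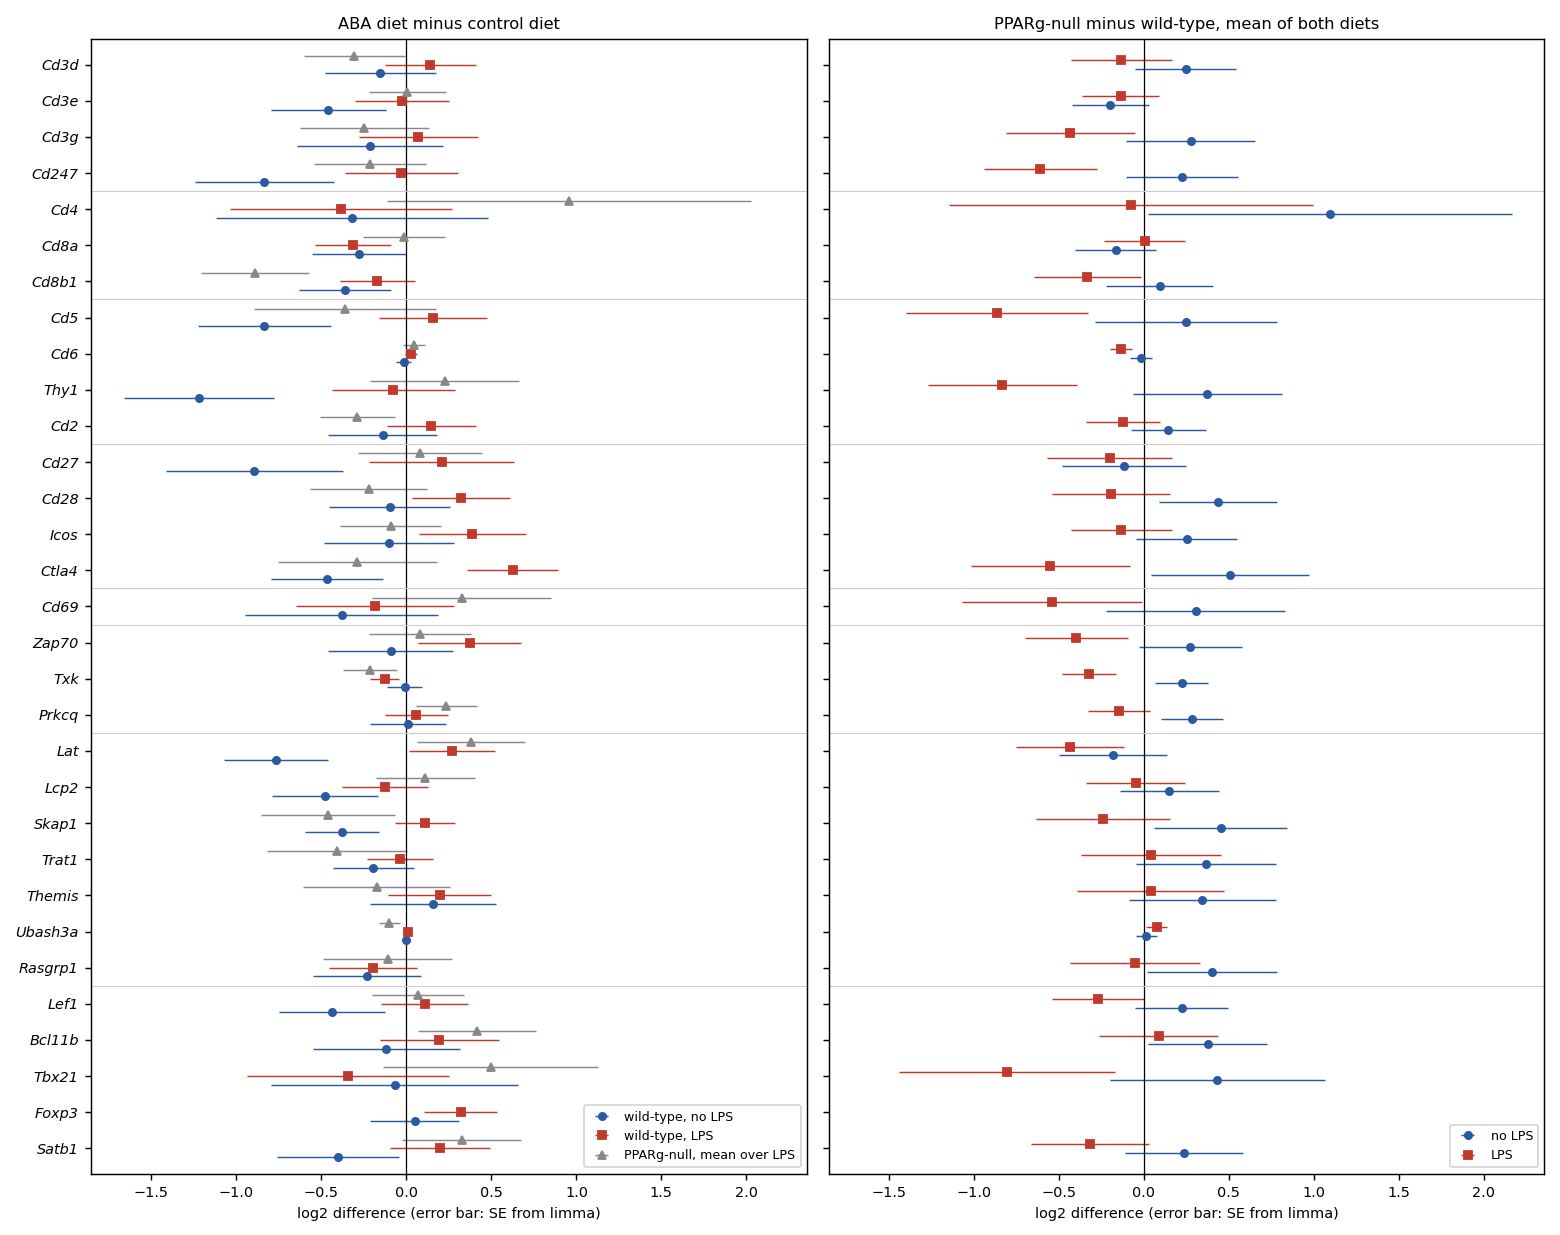
Differences by diet (left) and genotype (right) on the log2 scale for each member, with limma estimates as points and standard errors as bars. On the left are wild-type mice without LPS (blue circles) and with LPS (red squares) and null mice over both LPS states (grey triangles); on the right, mice without LPS (blue) and with LPS (red). No member was called in any of these 5 comparisons, and Thy1 without LPS on the left, at -1.22, is the lowest point of that panel.

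In the activation list 1 gene differed by genotype, named here after its values were seen. Il2ra, the high-affinity IL-2 receptor chain, passed the test of the genotype difference in LPS response (limma, adjusted p = 0.0128), on the strength of 2 arrays. It measured 4.69 and 4.28 on the wild-type control-diet LPS arrays, and between 2.25 and 2.51 on the other 14 arrays of that experiment, near the lowest value, so no size of response can be given for null mice or for ABA-fed wild-type mice. In the single-genotype experiment it measured 4.52 to 4.67 without LPS and 6.83 to 9.15 with it, on both diets. The wild-type arrays at 4.69 and 4.28 were also high in Xist, as was null control-diet LPS replicate 2, where Il2ra measured 2.34.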

How the data were processed

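Spleen RNA was hybridised to 28 single-channel arrays of 45101 probe sets. The authors' deposited table holds log2 values. That scale was inferred from the values, since GCRMA and limma are named in the submitters' processing notes without a role or version. Identical arrays were looked for and 0 pairs found. Per GEO's platform annotation, 34958 probe sets name 1 gene, 932 several and 9211 none, and only the first kind was used. Genes entered the tests when they passed an array's 40th percentile on enough arrays to fill the smallest condition. Testing used lmFit and eBayes (limma 3.58.1, R 4.3.3), and p-values were adjusted over all genes by Benjamini-Hochberg and called at 0.05. Values and calls of further probe sets come from separate limma fits over all single-gene probe sets, adjusted over those. For LPS in wild-type mice, Cd2 and Prkcq did not pass in that fit (adjusted p = 0.0561 and 0.0506). The wild-type model held 20 arrays and a term for the experiment (13458 genes, 15 residual df). The genotype model held 16 arrays (13377 genes, 8 df), and the model of differences between experiments 20 (13873 genes, 12 df). Models were tested on simulated data. The ± is a standard error, and the number of arrays limits the precision. Members and lists were chosen with earlier results of these data known. All members are named, with values on every array for those called with LPS in wild-type mice (up to 6 per direction, same sign in both experiments), for up to 2 per direction elsewhere and for Cd3e, Cd4, Cd8a, Foxp3 and Cd69, and the member of smallest p where none was called. Of other lists, up to 2 genes per direction are named by adjusted p. Alternatives were quantile normalisation, median centring, other filters, the mean of all probe sets, a mean-variance trend, a replicate block, terms for Xist, leaving out arrays with high Cpa1, each experiment alone and single omissions. Plots were made in matplotlib 3.10.9 (Python 3.11.15).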

Additional observations from a re-analysis of the deposited data

Results flagged for a closer look

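In 3 of 54 member groups of 4 arrays, 1 array stood far from the other 3 by the Dixon test at 95%, and chance flags about 1 in 20 groups. Among the ABA-diet LPS arrays of the single-genotype experiment, Cd8a was lowest at 7.91, with the next array at 8.79, and Skap1 was highest at 4.14, with the next at 3.69. Among the control-diet LPS arrays of that experiment, Rasgrp1 was highest at 9.87, with the next at 9.17. Il2ra had a fitted genotype difference in LPS response of -1.18 (limma interaction, adjusted p = 0.0128). That value is no measured size, since it rests on the 2 wild-type control-diet LPS arrays and all other groups of the experiment, ABA-fed wild-type mice with LPS included, lay near the lowest value.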

How the results depend on the processing

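For LPS in wild-type mice, 3 members rose within the single-genotype experiment and 2 within the other (5 over both), and 0 fell within the latter (6 over both). With replicate number as a block, 3 fell. Whether the numbers pair the arrays could not be told from the values. Deviations of same-numbered arrays from their group means correlated above 0.1 in 4 of 14 pairs of the single-genotype experiment and 20 of 56 of the other. The correlations ran from -0.17 to 0.38 and from -0.70 to 0.51. In a group of 2 arrays the deviations are equal and opposite, so these pairs repeat each other and cannot decide the question. Leaving out single arrays gave 4 to 7 rising and 3 to 7 falling, 3 being reached without control-diet replicate 2 or ABA-diet replicate 2 without LPS of the single-genotype experiment, or ABA-diet replicate 2 without LPS of the other. In wild-type mice of the experiment with both genotypes, single omissions gave 1 to 4 rising and 0 to 1 falling: 1 rising without control-diet LPS replicate 2, 2 without either control-diet array without LPS, ABA-diet replicate 1 without LPS, ABA-diet LPS replicate 2 or control-diet LPS replicate 1, and 1 falling without ABA-diet replicate 1 without LPS. In null mice they gave 0 to 2 rising and 1 to 6 falling: 0 rising without ABA-diet replicate 1 without LPS, ABA-diet LPS replicate 1 or control-diet LPS replicate 2, 2 rising without control-diet LPS replicate 1, and 6 falling without control-diet replicate 2 without LPS. Median centring gave 2 rising there, and leaving out the arrays with high Cpa1 gave 4 falling. For the ABA diet in null mice, omissions gave 0 to 1 falling. For the difference between experiments, quantile normalisation, median centring and the 60th percentile filter each called 1 member as higher and a term for high Xist called 2, and omissions gave 0 to 2 higher and 0 to 1 lower: 2 without ABA-diet replicate 2 without LPS or ABA-diet LPS replicate 1, 1 without either control-diet LPS array, and 1 lower without control-diet replicate 1 without LPS, all of the experiment with both genotypes. Signs turned for Cd8a with LPS in wild-type mice under the mean of all probe sets (0.032), within the experiment with both genotypes (0.069) and without ABA-diet replicate 2 without LPS of the single-genotype experiment (0.023, the single omissions spanning -0.21 to 0.023). In null mice they turned for Cd3e under median centring (0.0095) and for Cd8a under the mean of all probe sets (-0.032) and without the arrays with high Cpa1 (-0.10). None of these signs was called. The calls of Cd5, Cd2 and Prkcq with LPS in wild-type mice were each lost with no filter, with the block and with the Xist term, and that of Cd3g with the block (-0.73, adjusted p = 0.125). The block changed no other count of members by over 1.5 times. The cause of these shifts was not tested.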
